A study of Mus musculus with 12 samples.

Results

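Knockout EpiLCs were compared with control naïve ESCs: the 3 libraries of MTCH2-/- EpiLCs (KO EpiLCs) were set against the 3 libraries of MTCH2 F/F ESCs (F/F ESCs), 6 of the 12 libraries of the series, chosen by their labels. MTCH2-/- cells were MTCH2 F/F ESCs, derived from C57BL/6 blastocysts at E3.5, in which recombinant TAT-Cre had removed the floxed gene. The F/F ESCs carried the same floxed alleles without Cre, so that loss of the gene and exposure to Cre cannot be told apart. The ESCs grew in N2B27 medium with LIF, the MEK inhibitor PD0325901 and the GSK3 inhibitor CHIR99021 (2i/L). The EpiLCs had been moved for 2 days from 2i/L to Activin A and FGF2. The 6 other libraries, 3 of F/F EpiLCs and 3 of MTCH2-/- ESCs (KO ESCs), shared one of the 2 conditions with each group and are given where they place a level. Genotype and medium both differed between the 2 groups, so that a difference cannot be assigned to either from this comparison alone. The question was which features of control naïve cells the primed knockout cells had kept, lost or exceeded.

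Naïve pluripotency is the state of the preimplantation epiblast. In mouse ESCs it is held by a network of transcription factors that includes NANOG, ESRRB, KLF4 and TFCP2L1, and it is sustained by LIF together with a block of ERK signalling and of GSK3. When these are withdrawn and Activin A and FGF2 are given, the network is normally shut down within days, and formative genes such as *Fgf5*, *Otx2* and the de novo DNA methyltransferases are switched on. MTCH2 belongs to the mitochondrial carrier family and sits in the outer membrane of mitochondria.

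Each of the 12 libraries held 17453328 to 24068523 counts. The F/F ESCs had the markers of their label, with *Esrrb* at 941 to 1097 and *Nanog* at 979.5 to 1014 CPM (counts scaled to a common library size by edgeR's TMM factors) and *Fgf5* under 1 CPM. The KO EpiLCs had little *Mtch2* (2.18, 1.52 and 1.93 CPM), against 175, 183 and 172 CPM in F/F ESCs (log2 fold change −6.54, SE 0.103, adjusted p = 4.22e-16). Every fold change is of KO EpiLCs over F/F ESCs unless another pair is named, with p-values from edgeR's quasi-likelihood test and Benjamini-Hochberg adjustment over 17369 genes, in a fit of all 12 libraries. They measure the spread between these libraries, which were described as biological samples. Genes were called DE at a change of 2-fold or more with an adjusted p below 0.05. A gene was called within 2-fold when it was not DE and its 95% interval lay between −1 and 1 on the log2 scale, and undecided otherwise. No source used here gives the strand setting with which reads were counted, so that reads of genes that share exon bases with a neighbour, among them *Otx2*, *Pou5f1*, *Stat3*, *Tead2*, *Dnmt3l* and *mt-Co1*, may include the neighbour's. In bulk RNA, fewer cells that express a gene and less of it per cell cannot be told apart.

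Between these groups 2445 genes were higher (14.1% of the genes tested) and 1391 lower (8.01%) in KO EpiLCs. At an adjusted p under 0.05 with no fold minimum, 5355 were higher (30.8%) and 5044 lower (29% of them). A further 10707 genes were within 2-fold (61.6%) and 2826 were undecided (16.3%). The median log2 fold change over all genes tested was 0.0032. The counts of members in every gene list that follows stand against these shares of all genes, which are 14.1% higher, 8.01% lower and 61.6% within 2-fold.

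**Figure D1:**
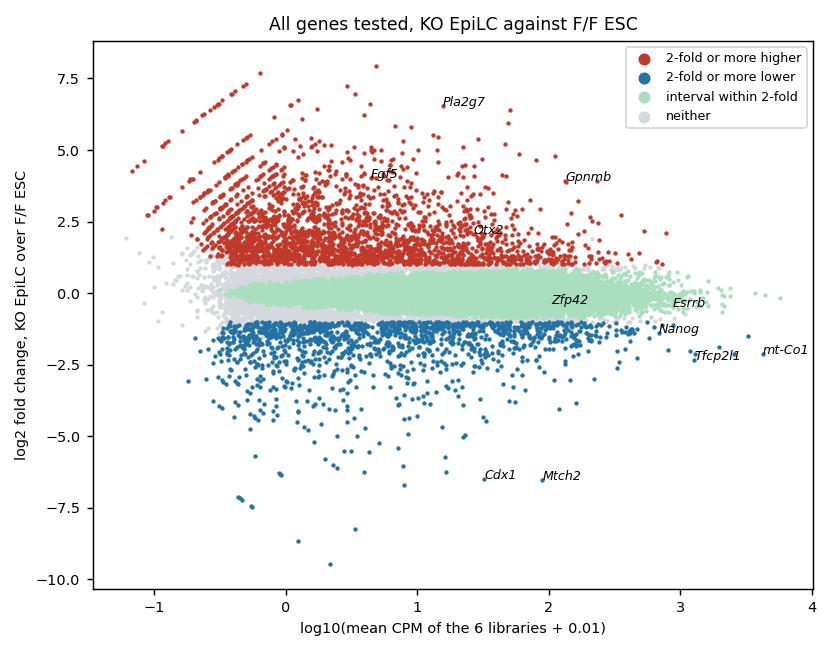
Log2 fold change of KO EpiLCs over F/F ESCs (vertical axis) against the mean level of the 6 libraries (horizontal axis, log10 CPM), one point per gene tested. The 2445 higher genes are red, the 1391 lower genes blue, the 10707 genes within 2-fold green and the rest grey, with *Mtch2* and *Cdx1* among the lowest points and *Zfp42* inside the 2-fold band.

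Of the 29 tested members of the naïve list, 10 were lower in KO EpiLCs (8.01% of all genes were), 1 was higher, 14 were within 2-fold and 4 were undecided. With no fold minimum 18 were lower and 3 higher. The median log2 fold change of the list was −0.55, against 0.0032 over all genes. For the same 29 genes F/F EpiLCs over F/F ESCs had a median of −2.17, and 24 were DE and lower there (14.2% of all genes), but both medians share the F/F ESC libraries. In summed CPM the list stood at 6162 to 6957 in KO EpiLCs, at 2133 to 2974 in F/F EpiLCs and at 11543 to 12452 in F/F ESCs. To place single genes, a position was computed in which 0 is the F/F EpiLC level and 1 the F/F ESC level on the log2 scale. The 26 naïve genes that differed at least 2-fold between the F/F groups had a median position of 0.762 in KO EpiLCs, against 0.467 over all 4748 genes that differed so, from −0.959 for *Fgfbp1* to 1.43 for *Manba*.

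The 10 naïve genes that fell were *Nanog*, *Tfcp2l1*, *Prdm14*, *Nr5a2*, *Tet2*, *Jam2*, *Tdh*, *Dppa3*, *Dppa5a* and *Ooep*. *Nanog*, the homeobox factor of the naïve network, had 340.5, 410.4 and 381 CPM in the KO EpiLC libraries, against 1014, 979.5 and 1003 CPM in the F/F ESC libraries (log2 fold change −1.41, SE 0.175, adjusted p = 2.96e-05). Each KO EpiLC library lay below each F/F ESC library and above the F/F EpiLC mean of 102 CPM. *Tfcp2l1*, a transcription factor downstream of LIF and STAT3, had 429, 380.4 and 450.2 CPM in KO EpiLCs and 2030.2, 2156 and 2202 CPM in F/F ESCs (log2 fold change −2.34, SE 0.189, adjusted p = 9.19e-07). It was the most changed of the abundant naïve factors, yet stayed above the 57.6 CPM of F/F EpiLCs, at position 0.553. In GRCm38 (GENCODE vM21 annotation) *Nanog* (ENSMUSG00000012396) lies on chromosome 6 from 122707489 to 122714633 and *Tfcp2l1* on chromosome 1 from 118627945 to 118685168. *Prdm14*, which represses FGF signalling and DNA methyltransferases, stood at 23.9, 26.7 and 25.8 CPM in KO EpiLCs and 86.2, 83.8 and 79.6 CPM in F/F ESCs (log2 fold change −1.71, SE 0.116, adjusted p = 6.60e-09). *Nr5a2*, an orphan nuclear receptor, stood at 49.9, 62.2 and 67.2 CPM in KO EpiLCs and 192, 195 and 190.5 CPM in F/F ESCs (log2 fold change −1.69, SE 0.107, adjusted p = 3.92e-09).

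*Tet2*, an enzyme that oxidises 5-methylcytosine, had 188, 248 and 260.3 CPM in KO EpiLCs and 625, 551 and 581 CPM in F/F ESCs (log2 fold change −1.33, SE 0.161, adjusted p = 1.72e-05). The junction gene *Jam2* fell by 1.37 and the threonine dehydrogenase gene *Tdh* by 1.30 on the log2 scale, to means of 202 and 247 CPM in KO EpiLCs, with 522 and 608 CPM in F/F ESCs. The positions of these 7 genes ran from 0.553 for *Tfcp2l1* to 0.768 for *Jam2*, above F/F EpiLCs. The other 3 were not. *Dppa3*, which protects the maternal genome from demethylation, had 1.02, 1.10 and 0.917 CPM in KO EpiLCs and 12.1, 13.3 and 13.0 CPM in F/F ESCs (log2 fold change −3.65, SE 0.223, adjusted p = 1.57e-09), and its F/F EpiLC mean was 2.13 CPM. *Dppa5a* averaged 291 CPM in KO EpiLCs, 362 CPM in F/F EpiLCs and 861 CPM in F/F ESCs (log2 fold change −1.56, SE 0.116, adjusted p = 4.30e-08). *Ooep*, a maternal-effect gene, averaged 27.4 CPM in KO EpiLCs, 32.3 CPM in F/F EpiLCs and 100.1 CPM in F/F ESCs (log2 fold change −1.87, SE 0.126, adjusted p = 1.02e-08). All 3 had positions under 0, at or below the primed control level.

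**Figure D2:**
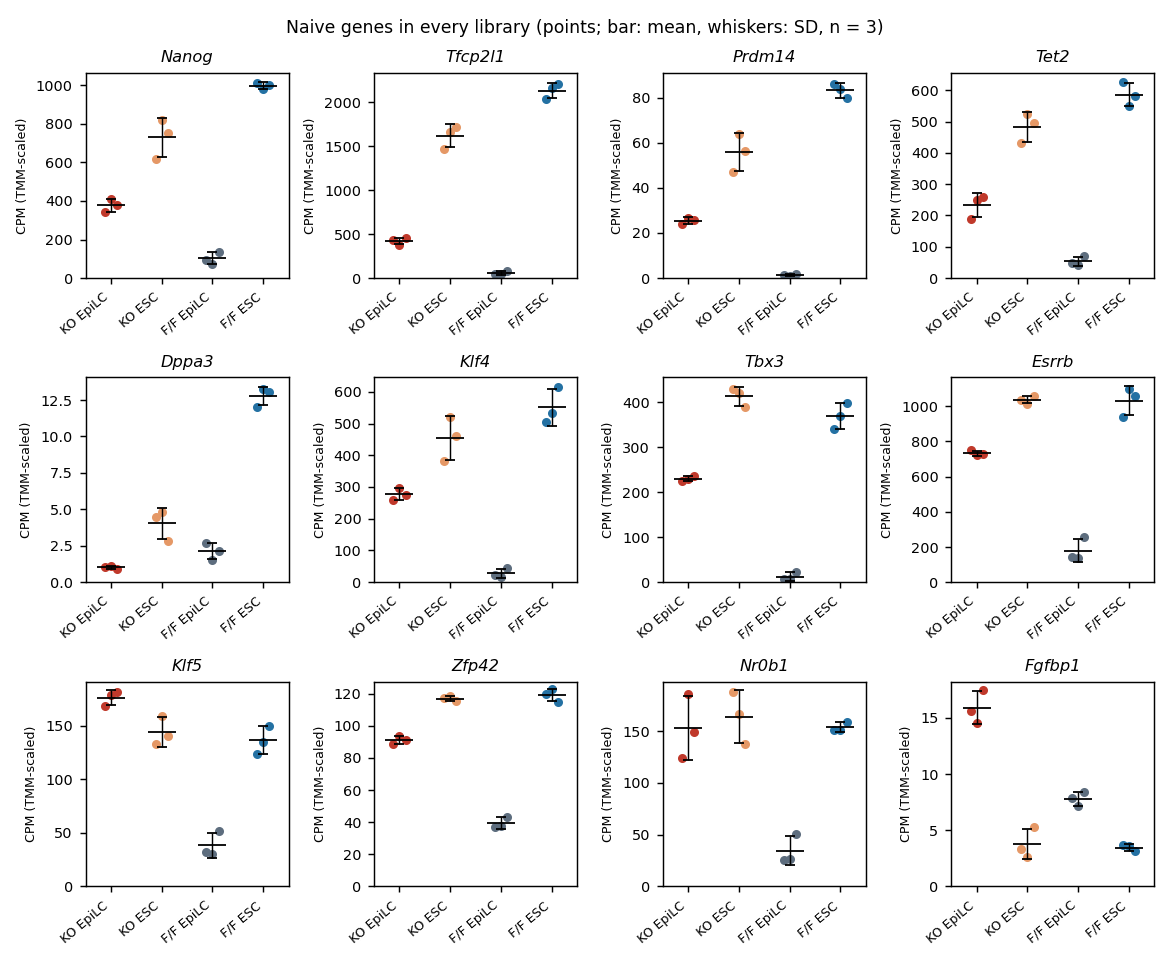
CPM of 12 naïve-list genes in every library, with the groups KO EpiLC, KO ESC, F/F EpiLC and F/F ESC from left to right (points: libraries; bar and whiskers: mean and SD, n = 3). KO EpiLCs lie between the F/F groups for *Nanog* (mean 377 CPM), overlap F/F ESCs for *Nr0b1* (153 CPM) and lie under both F/F groups for *Dppa3* (1.01 CPM).

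Of the 4 undecided naïve genes, *Klf4*, *Klf2* and *Tcl1* were lower at an adjusted p under 0.05 without reaching 2-fold, and *Tbx3* did not pass. *Klf4*, a Krüppel-like factor and a target of LIF, had 259.6, 297 and 276 CPM in KO EpiLCs and 504, 533 and 615 CPM in F/F ESCs (log2 fold change −0.99, SE 0.275, adjusted p = 0.0113), with an interval from −1.61 to −0.37. *Klf2*, a related factor that MEK inhibition stabilises, had 93.3, 108 and 98.6 CPM in KO EpiLCs and 159, 194 and 192 CPM in F/F ESCs (log2 fold change −0.86, SE 0.261, adjusted p = 0.0169). Its adjusted p rose to 0.0627 without KO EpiLC replicate 1 and was 4.90e-07 at the lowest among the alternatives. *Tcl1*, a coactivator of AKT, fell by 0.86 (adjusted p = 2.27e-04). *Tbx3*, a T-box factor, had 225, 229.9 and 235 CPM in KO EpiLCs and 341, 369 and 399 CPM in F/F ESCs (log2 fold change −0.68, SE 0.308, adjusted p = 0.0846). These libraries did not overlap. The F/F EpiLC libraries, which share the estimate of the spread, had *Tbx3* at a mean of 12.4 ± 9.23 CPM (SD, n = 3), and without F/F EpiLC replicate 3 the adjusted p for *Tbx3* was 1.77e-06. That replicate had the highest summed CPM of the naïve list among F/F EpiLCs, 2974 against 2133 and 2135. It also had the highest *Klf4* (45.0 CPM, against 23.0 and 16.3) and *Klf2* (23.5 CPM, against 10.2 and 8.34) of the F/F EpiLC libraries.

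Of the 14 naïve genes within 2-fold, 5 still passed the test as lower, 2 passed as higher and 7 did not pass. *Esrrb*, the orphan nuclear receptor that stands beside *Nanog* in the network, had 751, 723 and 727 CPM in KO EpiLCs and 941, 1097 and 1059.7 CPM in F/F ESCs (log2 fold change −0.49, SE 0.181, adjusted p = 0.0352), with an F/F EpiLC mean of 180.0 CPM. The libraries of the 2 groups did not overlap, and the interval ran from −0.89 to −0.09. The adjusted p of *Esrrb* was above 0.05 in 8 of 20 alternative fits (up to 0.0952), among them those without any 1 of the KO EpiLC libraries. Its lowest value among the alternatives was 7.48e-06. The F/F EpiLC libraries, which share the estimate of the spread, had 145, 139 and 256 CPM of *Esrrb*. *Zfp42* (Rex1), a widely used naïve reporter gene, stood at 88.7, 93.7 and 91.0 CPM in KO EpiLCs and 119.8, 123 and 115 CPM in F/F ESCs (log2 fold change −0.39, SE 0.0632, adjusted p = 7.02e-05), with 39.4 CPM in F/F EpiLCs. *Esrrb* lies on chromosome 12 from 86361117 to 86521628 and *Zfp42* on chromosome 8 from 43295063 to 43306980. *Zfp57*, which protects imprinted methylation, fell by 0.55 (adjusted p = 0.0138, and 0.0636 without KO EpiLC replicate 1). *Fbxo15* fell by 0.44 (adjusted p = 0.00130). *Stat3*, the transducer of LIF, had 133, 132 and 158 CPM in KO EpiLCs and 155, 172 and 169 CPM in F/F ESCs (log2 fold change −0.23, SE 0.0907, adjusted p = 0.0383, up to 0.13 among the alternatives), with libraries of both groups overlapping.

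Of the naïve genes within 2-fold that did not pass, 4 were at least 2-fold lower in F/F EpiLCs than in F/F ESCs. *Nr0b1* (Dax1), a nuclear receptor partner of OCT4, had 124, 186 and 149 CPM in KO EpiLCs and 151, 151 and 159 CPM in F/F ESCs (log2 fold change −0.01, SE 0.236, adjusted p = 0.979), with 34.3 CPM in F/F EpiLCs. *Spp1*, the osteopontin gene, had 866, 1073 and 956 CPM in KO EpiLCs and 925, 991 and 1055 CPM in F/F ESCs (log2 fold change −0.04, SE 0.150, adjusted p = 0.847), with 301 CPM in F/F EpiLCs. *Pecam1*, an adhesion molecule of naïve cells, had 163, 142 and 135 CPM in KO EpiLCs and 169.6, 169 and 180.0 CPM in F/F ESCs (log2 fold change −0.24, SE 0.141, adjusted p = 0.164, 0.0204 without F/F EpiLC replicate 3). *Klf5* had 168, 179 and 181 CPM in KO EpiLCs and 124, 135 and 150.0 CPM in F/F ESCs, so that every KO EpiLC library was higher (log2 fold change 0.37, SE 0.155, adjusted p = 0.0582), and with the replicate number as a block its adjusted p was 0.0318. The remaining *Fgf4* (log2 fold change 0.17, SE 0.0857, adjusted p = 0.0950, and 0.0393 with the block), *Dppa2* (log2 fold change 0.05, SE 0.0952, adjusted p = 0.673) and *Gbx2* (log2 fold change 0.29, SE 0.190, adjusted p = 0.208) were not DE between the F/F groups either. The 6 most abundant genes of this class were *Spp1*, *Zfp57*, *Esrrb*, *Fgf4*, *Fbxo15* and *Manba*.

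Some naïve-list genes exceeded the F/F ESC level. *Manba*, a lysosomal mannosidase, had 204, 195 and 209 CPM in KO EpiLCs and 127, 134 and 138 CPM in F/F ESCs (log2 fold change 0.61, SE 0.118, adjusted p = 4.71e-04), with 50.7 CPM in F/F EpiLCs. *Dppa4* rose by 0.77 (adjusted p = 6.08e-08) and was at 84.2 CPM in F/F EpiLCs too. *Fgfbp1*, which carries FGFs out of the matrix, was the only one past 2-fold, with 15.6, 14.6 and 17.5 CPM in KO EpiLCs and 3.67, 3.56 and 3.12 CPM in F/F ESCs (log2 fold change 2.20, SE 0.186, adjusted p = 6.01e-08), above the 7.79 CPM of F/F EpiLCs.

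Stretches of 120 bases from the promoter windows of a gene that fell and of one that stayed within 2-fold are printed because both hold the 7 letters ATGCAAA, the part of the octamer motif that POU factors such as OCT4 read. In the RefSeq promoter sequences (GRCm38.p6, 250 bases before to 50 after each start, both strands searched), 4 of 24 windows of 18 naïve-list genes held it (16.7%), against 4.63% of all 32851 windows. The 4 naïve-list windows were both windows of *Nanog*, which overlap and hold the same single match, so that it is counted for each, and 1 each of *Zfp42* and *Spp1*. Of the 30 formative and primed windows 1 held it (3.33%). Other motifs were searched in the same way. The E-box CACGTG was in 8.33% of the naïve-list windows (7.15% of all windows). The nuclear receptor site AAGGTCA was in 4.17% (4.72% of all), and the STAT site TTCCNGGAA in 0% (1.15% of all). Capitals mark the match, read here on the opposite strand, with a first letter 75 bases before the start for *Nanog* and 185 for *Zfp42*, and a match is a description of the letters only.
Nanog (chr6:122707358-122707477, + strand): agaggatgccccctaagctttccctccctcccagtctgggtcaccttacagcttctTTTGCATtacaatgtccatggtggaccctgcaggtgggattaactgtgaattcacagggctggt
Zfp42 (chr8:43307131-43307250, − strand): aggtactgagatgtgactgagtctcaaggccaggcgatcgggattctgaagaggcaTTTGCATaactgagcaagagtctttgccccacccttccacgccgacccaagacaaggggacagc

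Of 18 general pluripotency genes, which serve both states, 5 were higher, none was lower at 2-fold and 13 were within 2-fold. By edgeR's test with no fold minimum 10 were higher and 2 lower, 2 were lower at an unadjusted p under 0.05, and DESeq2 had 0 lower at 2-fold. *Pou5f1*, which encodes OCT4, had 655, 818 and 749.8 CPM in KO EpiLCs and 996, 1026 and 1012 CPM in F/F ESCs (log2 fold change −0.45, SE 0.0874, adjusted p = 3.57e-04). *Sox2*, its partner, had 346, 360.2 and 331 CPM in KO EpiLCs and 349, 396 and 412 CPM in F/F ESCs (log2 fold change −0.16, SE 0.140, adjusted p = 0.353), and the groups overlapped, while F/F EpiLCs averaged 151 CPM. The higher genes included *Utf1* (2.79), *Dnmt3b* (2.66), *Lin28a* (1.70) and *Epcam* (1.16) on the log2 scale. *Utf1* and *Lin28a* averaged 259.8 and 289.7 CPM in KO EpiLCs, 501 and 742 CPM in F/F EpiLCs, and 37.5 and 89.4 CPM in F/F ESCs.

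Formative and primed genes were mostly higher than in F/F ESCs, but in sum they stayed below F/F EpiLCs. The summed CPM of the list was 1910 to 2221 in KO EpiLCs, 4771 to 5545 in F/F EpiLCs and 690 to 731 in F/F ESCs. The list's median log2 fold change of KO EpiLCs over F/F EpiLCs was −1.11. Of 28 tested, 21 were higher in KO EpiLCs (14.1% of all genes were), 2 were lower and 5 were within 2-fold, with a median log2 fold change of 2.14. Over the 25 that differed at least 2-fold between the F/F groups, the median position was 0.391, near the 0.467 over all 4748 such genes. *Fgf5*, the standard marker of the formative epiblast, had 12.3, 6.56 and 6.18 CPM in KO EpiLCs and 0.447, 0.390 and 0.693 CPM in F/F ESCs (log2 fold change 4.02, SE 0.506, adjusted p = 3.34e-05), and 44.2 ± 9.86 CPM in F/F EpiLCs (SD, n = 3). *Otx2*, a homeobox factor of the formative state, had 42.3, 48.0 and 39.3 CPM in KO EpiLCs and 8.73, 13.5 and 8.97 CPM in F/F ESCs (log2 fold change 2.05, SE 0.192, adjusted p = 1.59e-06), against 165 CPM in F/F EpiLCs. *Pou3f1* (Oct6) had 38.0, 37.2 and 40.8 CPM in KO EpiLCs and 1.84, 2.15 and 2.28 CPM in F/F ESCs (log2 fold change 4.21, SE 0.130, adjusted p = 1.13e-12). *Fgf5* lies on chromosome 5 from 98254184 to 98277030 and *Otx2* on chromosome 14 from 48657677 to 48673819. For these 3 genes every KO EpiLC library was above every F/F ESC library and below the F/F EpiLC mean.

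The de novo methyltransferase genes rose together. *Dnmt3a* averaged 300.3 CPM in KO EpiLCs, 1086 CPM in F/F EpiLCs and 32.3 CPM in F/F ESCs (log2 fold change 3.22, SE 0.147, adjusted p = 9.49e-10). *Dnmt3b* averaged 357 CPM in KO EpiLCs, 1785 CPM in F/F EpiLCs and 56.5 CPM in F/F ESCs (log2 fold change 2.66, SE 0.150, adjusted p = 1.01e-08). *Dnmt3l*, their catalytically inactive partner, averaged 438 CPM in KO EpiLCs, 384 CPM in F/F EpiLCs and 28.7 CPM in F/F ESCs (log2 fold change 3.93, SE 0.214, adjusted p = 4.05e-08), and so reached the primed control level that the others did not. *Myrf*, a membrane-bound transcription factor, changed most in the list, with 101, 107 and 80.1 CPM in KO EpiLCs and 1.59, 1.51 and 1.59 CPM in F/F ESCs (log2 fold change 5.93, SE 0.152, adjusted p = 3.27e-13). *Etv4*, a target of FGF signalling, rose by 4.10, *Lef1* by 3.32, *Sox3* by 3.14, *Grhl2* by 2.74 and *Tcf15* by 2.66 on the log2 scale. Of the lowest members, *Car14* rose by 1.5 (adjusted p = 0.00751) at under 2 CPM, and without KO EpiLC replicate 1 its adjusted p was 0.0718.

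The formative list had exceptions. *Tead2*, a partner of YAP, had 83.7, 92.2 and 66.3 CPM in KO EpiLCs and 205, 240.2 and 225 CPM in F/F ESCs (log2 fold change −1.47, SE 0.104, adjusted p = 1.43e-08), although F/F EpiLCs had 261 CPM. *Dkk1*, a Wnt antagonist, was under 1 CPM throughout (log2 fold change −1.72, SE 0.460, adjusted p = 0.00435). The zinc-finger genes *Zic2* (log2 fold change 0.16, SE 0.140, adjusted p = 0.357) and *Zic5* (log2 fold change 0.21, SE 0.10, adjusted p = 0.0821) were within 2-fold, as were *Foxd3* (log2 fold change 0.19, SE 0.134, adjusted p = 0.238) and the receptor gene *Fzd2* (log2 fold change 0.26, SE 0.158, adjusted p = 0.166). *Zic5* averaged 28.4 CPM in KO EpiLCs, 70.6 CPM in F/F EpiLCs and 24.5 CPM in F/F ESCs. *Nodal*, the ligand that Activin stands in for, fell by 0.41 (adjusted p = 8.55e-04).

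**Figure D3:**
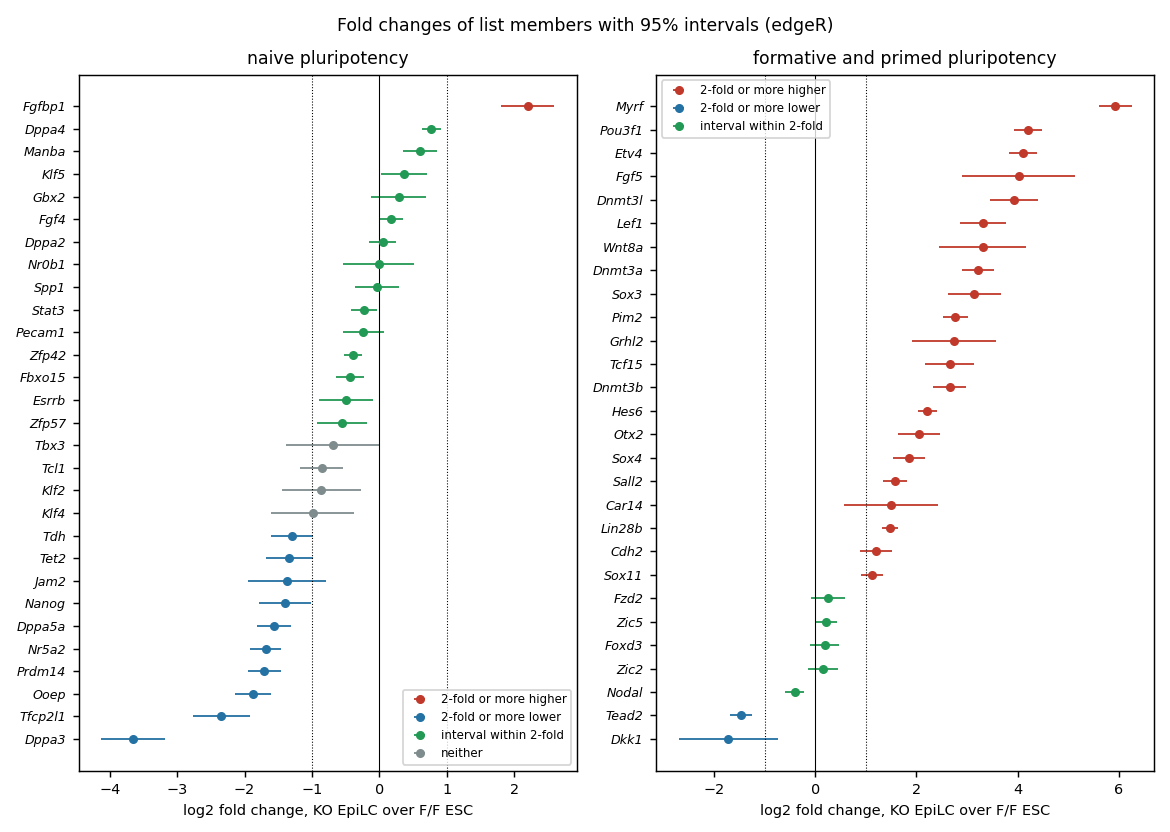
Log2 fold change of KO EpiLCs over F/F ESCs with 95% intervals for the 29 tested naïve genes (left) and 28 tested formative and primed genes (right), with dotted lines at 2-fold. Of the naïve genes 10 lie past the line on the lower side and 14 have intervals inside the lines, and 21 formative and primed genes lie past the line on the higher side.

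Targets of the pathways that the medium sets were read next. FGF and ERK targets, which MEK inhibition in 2i/L holds down, had 14 of 24 members higher (14.1% of all genes were), none lower at 2-fold or at an adjusted p under 0.05, and 10 within 2-fold (61.6% of all genes), with a median of 1.47. The count of lower members was also 0 in edgeR at an unadjusted p under 0.05 and in DESeq2 at 2-fold. *Dusp4*, a phosphatase induced by ERK, had 48.5, 35.3 and 30.6 CPM in KO EpiLCs and 1.79, 2.49 and 2.18 CPM in F/F ESCs (log2 fold change 4.14, SE 0.231, adjusted p = 2.65e-09). *Spry4*, a feedback inhibitor of the pathway, had 45.3, 51.4 and 57.3 CPM in KO EpiLCs and 3.08, 3.76 and 2.08 CPM in F/F ESCs (log2 fold change 4.11, SE 0.149, adjusted p = 5.95e-12). *Etv4* stood at 81.1, 89.1 and 97.3 CPM in KO EpiLCs and 5.51, 4.78 and 5.25 CPM in F/F ESCs, and *Fosl1*, an AP-1 subunit, rose by 3.38 (adjusted p = 2.80e-08). The summed CPM of the list was 2009 to 2078 in KO EpiLCs, 1776 to 1890 in F/F EpiLCs and 1217 to 1323 in F/F ESCs, so that KO EpiLCs were not below the primed controls.

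Wnt targets, which GSK3 inhibition holds up in 2i/L, had 8 of 19 lower (8.01% of all genes were), 4 higher (14.1% of all genes) and 5 within 2-fold (median −0.70), so that members changed in both directions. *Cdx1*, a caudal homeobox gene, had 0.847, 0.420 and 0.820 CPM in KO EpiLCs and 51.4, 62.0 and 78.0 CPM in F/F ESCs (log2 fold change −6.49, SE 0.254, adjusted p = 8.21e-11). *Sp5*, a direct Wnt target, had 0.178, 0.262 and 0.241 CPM in KO EpiLCs and 9.43, 15.8 and 20.9 CPM in F/F ESCs (log2 fold change −6.05, SE 0.405, adjusted p = 1.10e-08). *T* (Brachyury), a mesoderm factor, had 0.223, 0.210 and 0.145 CPM in KO EpiLCs and 1.34, 2.54 and 2.08 CPM in F/F ESCs (log2 fold change −3.32, SE 0.461, adjusted p = 1.34e-05), and *Cdx2* fell by 3.71 (adjusted p = 4.25e-06). The F/F EpiLC means were 0.0519 CPM for *Cdx1*, 0.0573 CPM for *Sp5* and 0.396 CPM for *T*. *Axin2*, a negative regulator that Wnt induces, averaged 12.8 ± 0.500 CPM in KO EpiLCs and 91.9 ± 7.37 CPM in F/F ESCs (SD, n = 3 each). The higher members *Lef1* (3.32), *Nkd2* (1.82), *Fzd7* (1.56) and *Ascl2* (1.35) include a formative gene, *Lef1*, that stands in both lists.

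LIF and STAT3 targets had 6 of 21 lower (8.01% of all genes), 3 higher and 10 within 2-fold (median −0.23), and the share higher was about the 14.1% of all genes. *Bcl3*, a coregulator of NF-kB, had 9.45, 13.1 and 10.4 CPM in KO EpiLCs and 62.4, 71.8 and 75.2 CPM in F/F ESCs (log2 fold change −2.67, SE 0.192, adjusted p = 8.19e-08). *Bcl6*, a repressor, fell by 2.37, while *Cebpb*, a bZIP factor that also stands in the stress list, rose by 2.91 (adjusted p = 1.45e-09). The summed CPM of these targets was 1771 to 1887 in KO EpiLCs, 748.4 to 959 in F/F EpiLCs and 3987 to 4384 in F/F ESCs. Of these targets *Klf4*, *Klf5*, *Tfcp2l1*, *Stat3* and *Gbx2* stand in the naïve list too. *Tfcp2l1* was a large part of the sum, with a mean of 420 CPM in KO EpiLCs and 2129 CPM in F/F ESCs. Nodal and Activin targets had 4 of 16 higher (14.1% of all genes), 1 lower and 10 within 2-fold (median 0.59), and the shares lower and within 2-fold were near the 8.01% and 61.6% of all genes. *Lefty1*, a Nodal inhibitor, had 112, 43.0 and 29.0 CPM in KO EpiLCs and 8.04, 4.05 and 2.18 CPM in F/F ESCs (log2 fold change 3.69, SE 0.768, adjusted p = 0.00298), and *Lefty2* had 287, 182 and 119 CPM in KO EpiLCs and 79.4, 54.8 and 37.8 CPM in F/F ESCs (log2 fold change 1.77, SE 0.470, adjusted p = 0.0103). The lowest KO EpiLC library was the third replicate for both genes and the groups did not overlap. *Gsc* (goosecoid), a homeobox factor, fell by 4.98 (adjusted p = 1.40e-08). Of 15 BMP and ID genes 3 were higher, 3 lower and 8 within 2-fold. *Bmp4* rose by 3.03 (adjusted p = 2.67e-09), *Nog*, its antagonist, by 2.13 at under 1 CPM, and *Smad6*, an inhibitor of the pathway, fell by 1.35. *Smad9* fell by 1.43 (adjusted p = 0.0174), which did not hold without KO EpiLC replicate 2 (0.0533), KO EpiLC replicate 3 (0.0763) or F/F ESC replicate 1 (0.0627).

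**Figure D4:**
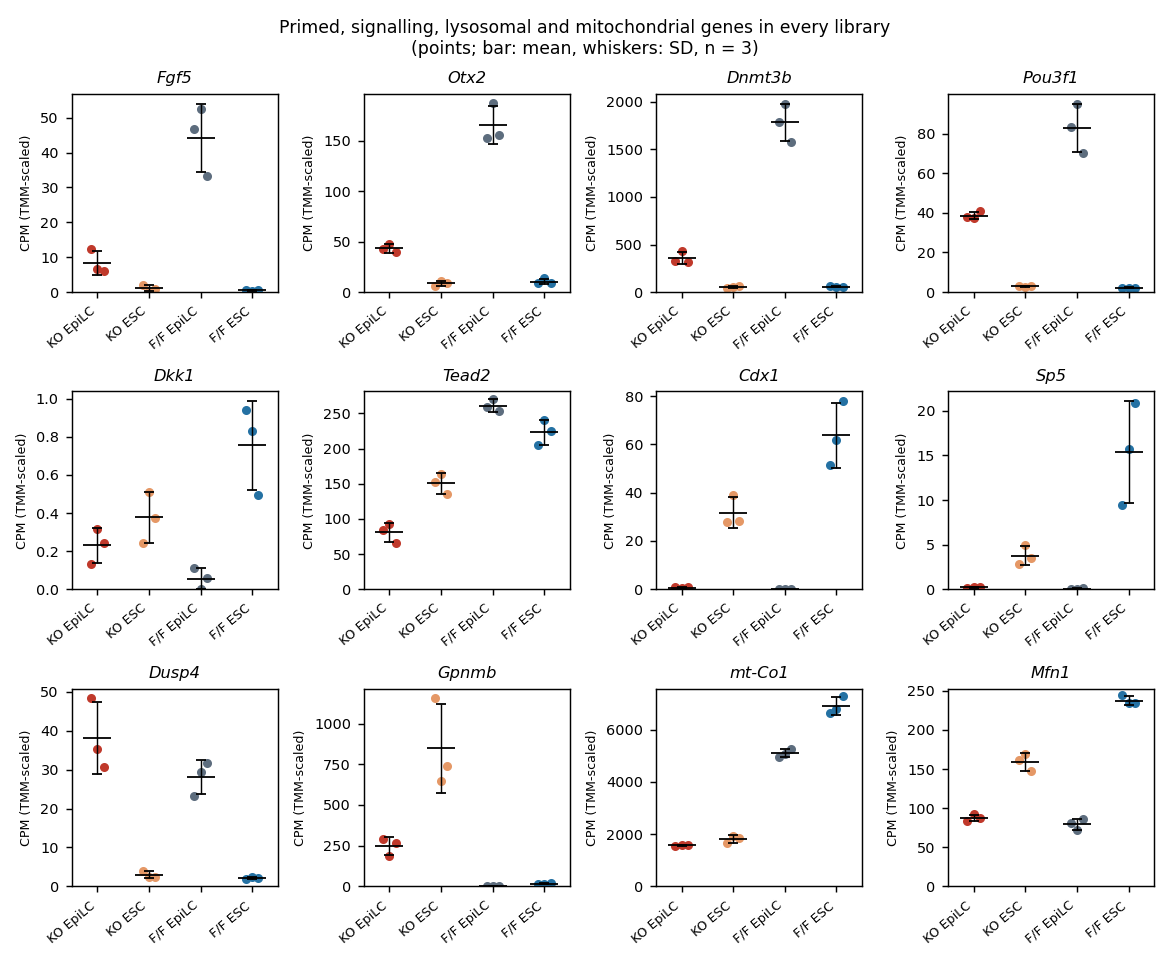
CPM of 12 formative, Wnt, FGF, lysosomal and mitochondrial genes in every library, with the groups KO EpiLC, KO ESC, F/F EpiLC and F/F ESC from left to right (points: libraries; bar and whiskers: mean and SD, n = 3). *Fgf5* in KO EpiLCs (mean 8.33 CPM) lies far below F/F EpiLCs (44.2 CPM), *Dusp4* (38.1 CPM) does not, and *mt-Co1* (1568 CPM) is as low as in KO ESCs (1821 CPM).

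The DNA methylation list had 4 of 14 higher, 1 lower and 8 within 2-fold (median 0.18), and the 4 were the methyltransferase genes above and *Tet3*, an oxidase (log2 fold change 1.86, SE 0.188, adjusted p = 2.08e-06). Germline genes that methylation normally silences had 11 of 23 higher and none lower at 2-fold, with a median of 0.88, while 2 were lower in edgeR with no fold minimum, 3 at an unadjusted p under 0.05, and 0 at 2-fold in DESeq2. *Taf7l*, a germ cell transcription factor, had 33.5, 16.8 and 16.4 CPM in KO EpiLCs and 2.18, 2.10 and 2.63 CPM in F/F ESCs (log2 fold change 3.27, SE 0.427, adjusted p = 5.26e-05), and *Piwil2*, of the piRNA pathway, 56.5, 47.7 and 45.6 CPM in KO EpiLCs and 16.1, 10.7 and 11.7 CPM in F/F ESCs (log2 fold change 1.96, SE 0.172, adjusted p = 2.90e-07). *Slc25a31* rose by 2.44 and *Asz1* by 2.02. F/F EpiLCs had 3.72 CPM of *Taf7l* and 22.4 CPM of *Piwil2*, below KO EpiLCs. For the whole list the median log2 fold change was 0.64 for KO ESCs over F/F ESCs and 0.25 for KO EpiLCs over KO ESCs.

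Genes of the 2-cell-like state had 12 of 15 tested higher and none lower at 2-fold, with a median of 1.70, but 10 of the 25 members in the counts did not pass the filter on low counts, and all members but *Zfp750* and *Eif1a* averaged under 4 CPM in both groups. In edgeR 1 was lower at an unadjusted p under 0.05, and DESeq2 had 0 lower at 2-fold. With a mean of at least 10 CPM over the 12 libraries only 1 was higher. A member near 0 CPM in F/F ESCs could pass the filter on low counts only through libraries where it was higher. The counts by direction are therefore partly set by the filter. *Zfp750*, an epidermal zinc-finger factor on this list, had 63.4, 50.6 and 56.9 CPM in KO EpiLCs and 9.08, 9.07 and 9.11 CPM in F/F ESCs (log2 fold change 2.65, SE 0.147, adjusted p = 9.72e-10). *Zfp352* rose by 2.68 and *Usp17lc* by 2.49, and near-identical copies of these gene families can share reads. *Tmem92* (1.02) was undecided with the replicate block, where its log2 fold change was 0.99. The list's summed CPM, most of it *Eif1a*, was 288.9 to 314 in KO EpiLCs and 317 to 333.6 in F/F ESCs. Its median log2 fold change was 0.86 for KO ESCs over F/F ESCs and −0.92 for F/F EpiLCs over F/F ESCs.

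Mitochondrially encoded transcripts were low in KO EpiLCs. Of 9 tested, 8 were lower and 1, *mt-Rnr1*, was within 2-fold, with a median log2 fold change of −1.98. The list had 15 members in the counts. *mt-Nd3*, *mt-Nd4l*, *mt-Co2*, *mt-Co3*, *mt-Atp6* and *mt-Atp8* did not pass the filter on low counts, and why was not tested. The share of counts from all genes with the mt- prefix was 0.521 to 0.534% in KO EpiLCs, 0.539 to 0.601% in KO ESCs, 1.41 to 1.46% in F/F EpiLCs and 1.98 to 2.11% in F/F ESCs. *mt-Co1*, a core subunit of complex IV, had 1562, 1573 and 1569.6 CPM in KO EpiLCs and 6650.0, 6782 and 7288 CPM in F/F ESCs (log2 fold change −2.14, SE 0.0664, adjusted p = 1.13e-12). *mt-Nd1*, *mt-Nd2* and *mt-Nd5*, of complex I, fell by 2.12, 2.03 and 2.11. The reads came from poly-A RNA.

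Nuclear genes of the respiratory chain moved less. Of 50, 4 were lower at 2-fold, none was higher at an adjusted p under 0.05 (0 at an unadjusted p under 0.05, and 0 at 2-fold by DESeq2), and 44 were lower with no fold minimum (29% of all genes were), with a median of −0.43. All 4 that passed 2-fold encode complex IV subunits. *Cox6b1* had 62.9, 79.1 and 67.6 CPM in KO EpiLCs and 190.4, 195 and 189 CPM in F/F ESCs (log2 fold change −1.45, SE 0.0792, adjusted p = 4.78e-10), and *Cox7b*, *Cox5a* and *Cox7a2* fell by 1.11, 1.11 and 1.10. The means of *Cox6b1* were 114 CPM in F/F EpiLCs and 105 CPM in KO ESCs. The genes for mitochondrial DNA maintenance were mostly within 2-fold (26 of 29), with *Top1mt*, the mitochondrial topoisomerase, higher (log2 fold change 1.33, SE 0.179, adjusted p = 1.16e-05) and *Rrm2b*, a ribonucleotide reductase subunit, lower (log2 fold change −1.05, SE 0.108, adjusted p = 5.52e-07), which was under 2-fold without KO EpiLC replicate 1 or without F/F ESC replicate 3. *Ppargc1a*, a coactivator of mitochondrial biogenesis, was called higher as well, with 2.63, 0.682 and 1.45 CPM in KO EpiLCs, but 2 of the 3 F/F ESC libraries held no count of it and no fold is given.

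Of 27 genes of mitochondrial dynamics 24 were within 2-fold, as were 61.6% of all genes. The exception among the core fusion genes was *Mfn1*, one of the mitofusins of the outer membrane, with 84.2, 92.2 and 87.0 CPM in KO EpiLCs and 244, 234 and 234 CPM in F/F ESCs (log2 fold change −1.44, SE 0.0721, adjusted p = 1.98e-10). It lies on chromosome 3 from 32529465 to 32579239, and its mean was 79.3 CPM in F/F EpiLCs and 159 CPM in KO ESCs. *Mfn2*, the other mitofusin, had 46.1, 41.8 and 38.7 CPM in KO EpiLCs and 41.3, 40.7 and 41.2 CPM in F/F ESCs (log2 fold change 0.04, SE 0.0710, adjusted p = 0.662). *Opa1*, of inner membrane fusion, rose by 0.30 (adjusted p = 3.25e-04), and *Dnm1l*, the fission dynamin, fell by 0.24 (adjusted p = 0.00207). *Inf2*, a formin that takes part in fission, rose by 2.40 (adjusted p = 3.68e-08) and *March5*, a ligase of the outer membrane, by 1.05. *Mtch1*, the paralog of *Mtch2*, was within 2-fold (log2 fold change −0.09, SE 0.0535, adjusted p = 0.158).

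In glycolysis 2 of 28 genes were higher (14.1% of all genes), 4 lower (8.01%) and 17 within 2-fold, about the 61.6% of all genes (median −0.29), and 16 were lower with no fold minimum (29% of all genes). *Slc16a3*, a lactate exporter, averaged 41.8 CPM in KO EpiLCs, 195 CPM in F/F EpiLCs and 8.38 CPM in F/F ESCs (log2 fold change 2.31, SE 0.131, adjusted p = 1.22e-09). *Pdk1*, which inhibits pyruvate dehydrogenase, averaged 94.9 CPM in KO EpiLCs, 224 CPM in F/F EpiLCs and 22.9 CPM in F/F ESCs (log2 fold change 2.05, SE 0.0980, adjusted p = 1.12e-10). *Hk1*, a hexokinase, fell by 1.79 and *Aldoc* by 1.37. Of 35 genes of the TCA cycle and glutamine use, 4 were higher and 30 within 2-fold (median −0.28). With no fold minimum 20 were lower (29% of all genes were) and 10 higher (30.8% of all genes). The 4 higher at 2-fold were *Pcx*, which feeds pyruvate into the cycle (1.80), the amino acid transporters *Slc38a2* (1.12) and *Slc38a1* (1.04), and *Glul*, the glutamine synthetase (1.08). Of 33 histone acetylation genes 2 were higher, 3 lower and 27 within 2-fold. *Hdac9* (2.98) and *Hdac4* (1.15) were higher, and the lower genes included *Hdac7* (−2.24) and the citrate carrier *Slc25a1* (−1.07). Without KO EpiLC replicate 1 only 1 of the lower genes passed 2-fold.

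In the integrated stress response 15 of 33 were higher (14.1% of all genes) and 1 lower (8.01% of all genes) at 2-fold (0 lower without KO EpiLC replicate 1, median 0.88), and 26 were higher with no fold minimum (30.8% of all genes were). *Stc2*, a secreted glycoprotein, had 115, 112 and 107 CPM in KO EpiLCs and 17.7, 12.2 and 13.4 CPM in F/F ESCs (log2 fold change 2.94, SE 0.117, adjusted p = 2.24e-11), and *Slc7a11*, the cystine transporter, 20.4, 28.9 and 28.1 CPM in KO EpiLCs and 3.03, 3.22 and 2.58 CPM in F/F ESCs (log2 fold change 3.13, SE 0.197, adjusted p = 3.30e-09). *Fgf21* rose by 3.03 at about 1 CPM. F/F EpiLCs averaged 92.1 CPM of *Stc2* and 19.7 CPM of *Slc7a11*. Of 25 p53 targets 9 were higher (14.1% of all genes) and 3 lower (8.01% of all genes) at 2-fold (0 lower without KO EpiLC replicate 1, median 0.87). Their summed CPM was 4682 to 5222 in KO EpiLCs, 4528 to 5180 in KO ESCs, 3118 to 3428 in F/F EpiLCs and 3259 to 3415 in F/F ESCs. *Gadd45a*, a growth arrest gene, had 83.9, 110.1 and 99.4 CPM in KO EpiLCs and 12.9, 13.3 and 13.4 CPM in F/F ESCs (log2 fold change 2.89, SE 0.115, adjusted p = 1.94e-11), *Trp73*, a p53 relative, rose by 2.04 and *Pmaip1* (Noxa) by 2.07. *Fas*, the death receptor gene, had 4.37, 2.52 and 3.52 CPM in KO EpiLCs, and 0.198, 0.0488 and 0 CPM in F/F ESCs.

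Of 36 lysosome genes and TFE3 targets 4 were higher, 1 lower and 25 within 2-fold (median 0.07), and the shares higher and lower were below the 14.1% and 8.01% of all genes. *Gpnmb*, a glycoprotein of lysosomes, had 293, 188 and 269 CPM in KO EpiLCs and 17.1, 14.2 and 18.0 CPM in F/F ESCs (log2 fold change 3.93, SE 0.267, adjusted p = 5.89e-07). Its mean was 848 CPM in KO ESCs and 3.52 CPM in F/F EpiLCs. *Sqstm1* (p62), an autophagy receptor, had 732, 681 and 710.0 CPM in KO EpiLCs and 243, 261 and 288 CPM in F/F ESCs (log2 fold change 1.42, SE 0.0736, adjusted p = 2.85e-10), and *Flcn*, which keeps TFE3 in the cytoplasm, rose by 1.25. *Mitf*, a relative of TFE3, fell by 2.37 (adjusted p = 1.26e-10). In cholesterol synthesis 2 of 24 were higher and 1 lower, and without KO EpiLC replicate 1, whose summed CPM of the list was 3040 against 4916 and 5011 in the other KO EpiLCs, 5 were higher. *Lss*, the lanosterol synthase, rose by 1.57, while *Ebp* fell by 1.22. In the cell cycle 35 of 41 genes were within 2-fold (median −0.21). At 2-fold *Ccnd2* (2.84), *Cdkn1c* (2.38) and *Rb1* (1.18) were higher and *Ccnd3* (−1.84) lower, and 2 genes were lower without KO EpiLC replicate 1 or 2 or F/F ESC replicate 1. With no fold minimum 21 cell cycle genes were lower (29% of all genes were) and 6 higher (30.8% of all genes). Their summed CPM was 6763 to 7361 in KO EpiLCs and 8095 to 8444 in F/F ESCs.

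**Figure D5:**
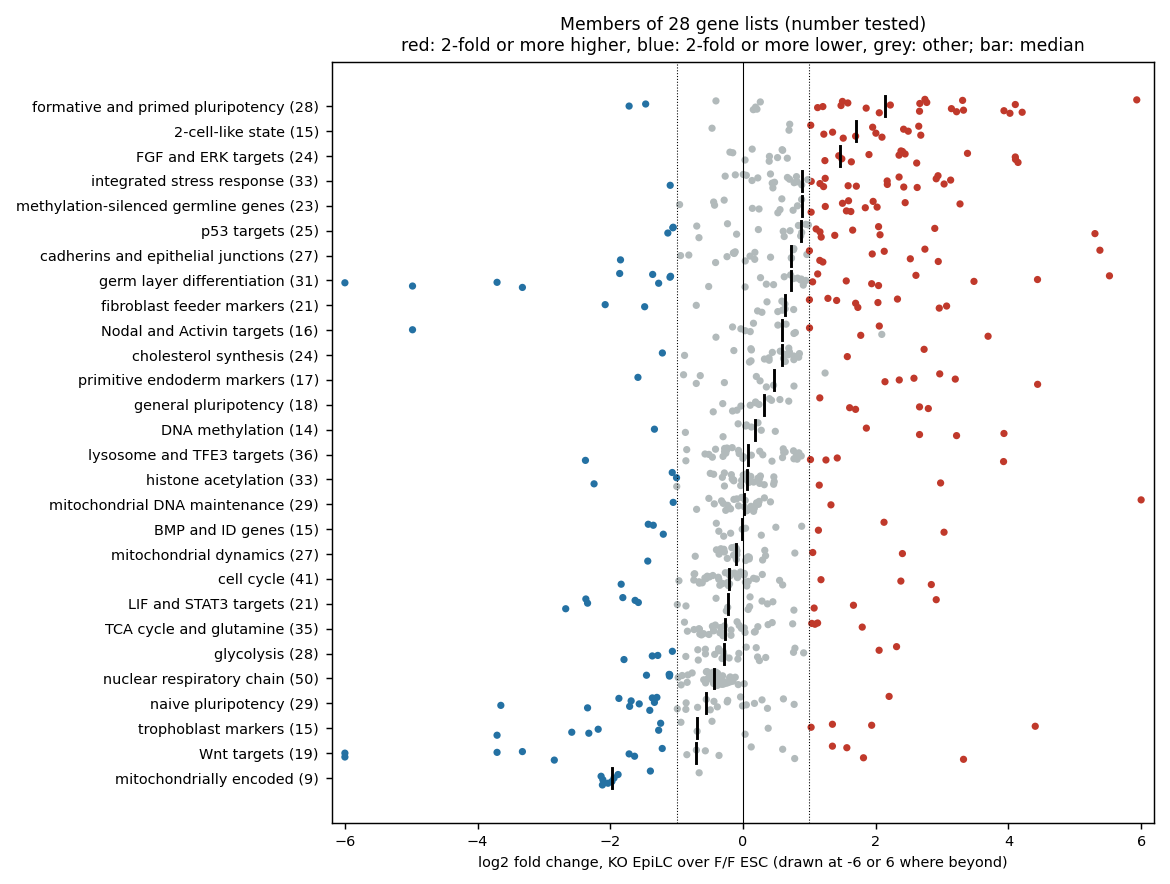
Log2 fold change of KO EpiLCs over F/F ESCs for the tested members of 28 gene lists, 1 point per gene, ordered by the list's median (black bar), with red for DE higher and blue for DE lower genes. The formative and primed list has the highest median (2.14) and the mitochondrially encoded list the lowest (−1.98), with the naïve list at −0.55.

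The largest changes included genes outside these lists. Of the 12 largest rises, *Pla2g7*, a platelet-activating factor hydrolase, had 23.9, 29.1 and 39.8 CPM in KO EpiLCs and 0.198, 0.439 and 0.347 CPM in F/F ESCs (log2 fold change 6.53, SE 0.382, adjusted p = 6.23e-09), with 0.324 CPM in F/F EpiLCs. *Prph*, the intermediate filament peripherin, had 85.6, 111 and 104 CPM in KO EpiLCs and 1.49, 1.27 and 0.793 CPM in F/F ESCs (log2 fold change 6.4, SE 0.165, adjusted p = 3.24e-13), with 27.8 CPM in F/F EpiLCs. *Alox5* (5.45), *Arhgef28* (5.01) and both of these were above F/F EpiLCs. *Adam23* (5.23) and the zinc transporter *Slc39a14* (4.79) were close to F/F EpiLCs, and *Myrf*, *Dll1* (5.52), *Esrp1* (5.38) and *Gadd45g* (4.98) were below them. KO ESCs over F/F ESCs had log2 fold changes of 4.36 for *Alox5*, 3.97 for *Dll1*, 3.48 for *Prph*, 3.28 for *Arhgef28* and 3.17 for *Gadd45g*. In that pair *Pla2g7* had 3.06, *Slc39a14* 2.51, *Esrp1* 2.46, *Adam23* 1.01 and *Myrf* 0.213.

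Of the 12 largest falls, 11 followed *Mtch2*. *Dmgdh*, a mitochondrial dimethylglycine dehydrogenase, had 0.535, 0.210 and 1.01 CPM in KO EpiLCs and 26.5, 28.3 and 40.6 CPM in F/F ESCs (log2 fold change −5.73, SE 0.343, adjusted p = 8.23e-09). *Spic*, an Ets factor of naïve cells, had 1.07, 2.26 and 1.11 CPM in KO EpiLCs and 47.6, 46.0 and 41.3 CPM in F/F ESCs (log2 fold change −4.94, SE 0.217, adjusted p = 9.41e-11), and *Lcp1*, an actin bundling protein, 1.38, 1.15 and 1.40 CPM in KO EpiLCs and 38.5, 43.0 and 48.3 CPM in F/F ESCs (log2 fold change −5.03, SE 0.163, adjusted p = 1.70e-12). *Calcoco2*, an autophagy receptor, averaged 13.7 CPM in KO EpiLCs, 4.0 CPM in F/F EpiLCs and 226 CPM in F/F ESCs (log2 fold change −4.05, SE 0.158, adjusted p = 2.12e-10). *Rerg* (−4.68), *Lrrc15* (−4.47), *Accsl* (−4.33), *Rasgrp1* (−4.30), *Ubd* (−3.91) and *Ism2* (−3.87) made up the rest with *Cdx1*. Each of these genes averaged under 5 CPM in F/F EpiLCs.

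Differentiation genes of the germ layers went both ways, with 9 of 31 tested higher and 9 lower. *Dll1*, a Notch ligand, had 21.9, 25.7 and 30.4 CPM in KO EpiLCs and 0.744, 0.293 and 0.644 CPM in F/F ESCs (log2 fold change 5.52, SE 0.229, adjusted p = 4.11e-11), and *Neurod1*, a neural bHLH factor, 40.3, 38.7 and 46.5 CPM in KO EpiLCs and 1.98, 1.85 and 1.93 CPM in F/F ESCs (log2 fold change 4.44, SE 0.137, adjusted p = 1.13e-12). *Cdx1*, *Gsc*, *Cdx2* and *T* were among the lower genes. *Foxa2*, an endoderm factor, was below the filter, with 7, 5 and 5 counts in KO EpiLCs and 3, 3 and 2 counts in F/F ESCs. Of 27 cadherin and junction genes 9 were higher and 1 lower (2 without KO EpiLC replicate 1 or 3), led by *Esrp1*, an epithelial splicing regulator (log2 fold change 5.38, SE 0.186, adjusted p = 1.20e-11), *Cdh3* (2.94), *Grhl2* and *Cldn6* (2.52).

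Markers of other cell types moved as well, and their part in the results above was not tested. Of 21 fibroblast markers 9 were higher and 2 lower, with a summed CPM of 1749 to 1966 in KO EpiLCs and 4366 to 5399 in F/F ESCs. Most of that sum was *Fn1* (1721 CPM in KO EpiLCs and 4807 CPM in F/F ESCs), which ESCs express too, and the defining collagens *Col1a1* (7.93 CPM in KO EpiLCs and 6.52 CPM in F/F ESCs) and *Col1a2* (3.13 CPM in KO EpiLCs and 2.19 CPM in F/F ESCs) were low in both groups. *Thy1* (3.07) and *Thbs1* (2.33) rose and *Pdgfrb* fell by 2.08. Among 17 markers of primitive endoderm, 6 rose and 1 fell, with a sum of 1480 to 1818 CPM in KO EpiLCs and 2403 to 2592 CPM in F/F ESCs. Of the defining genes, *Gata6* averaged 1.24 CPM in KO EpiLCs and 0.725 CPM in F/F ESCs, and *Sox17* 1.18 CPM in KO EpiLCs and 0.854 CPM in F/F ESCs, while *Sox7* (log2 fold change 4.44, SE 0.253, adjusted p = 7.88e-10) and the collagen genes *Col4a1* (3.20) and *Col4a2* (2.58) rose. *Gata6* did not pass (adjusted p = 0.0771) but did with the replicate block (0.0264). *Cubn* was undecided (adjusted p = 0.202) and higher with the replicate block (0.00512). Of 15 trophoblast markers 4 were higher and 6 lower, with a sum of 135 to 165 CPM in KO EpiLCs and 282 to 304 CPM in F/F ESCs. *Tfap2c* (log2 fold change −2.32, SE 0.237, adjusted p = 9.30e-06) and *Tfap2a* (−2.58) fell, *Krt19* rose (log2 fold change 4.40, SE 0.349, adjusted p = 1.29e-07), and *Cdx2* was at 0.0891, 0.157 and 0.0965 CPM in KO EpiLCs and 1.64, 1.61 and 1.39 CPM in F/F ESCs.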

How the data were processed

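RNA-Seq of poly-A RNA was run on 12 libraries in 4 groups of 3, and samples were grouped by their labels. Reads were mapped by the authors to GRCm38 with TopHat2 2.0.10 and counted per gene with HTSeq 0.6.1p1. The tool versions come from the submitters' processing notes. The count table they deposited holds raw whole numbers. A second set of deposited columns holds normalized signal, in which each count was divided by a size factor from DESeq2 1.6.3, and it served only to check that the factors equal those computed here. The deposited fold changes and adjusted p-values of the authors' comparisons were not used, and KO EpiLCs against F/F ESCs is not one of them.

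From the counts, 17369 of 46477 genes passed edgeR's filter (filterByExpr). They were scaled by TMM and fitted in edgeR 4.0.16 (R 4.3.3) with the robust quasi-likelihood model over the 4 groups, without a term for the replicate number. DESeq2 1.42.0 was an alternative. The fit was also run on simulated counts of independent libraries, with the same spread in every group and no pairing. No result here rests on that run. Positions used log2(CPM + 1), and groups are given as mean ± SD. With 3 libraries a group and 17453328 to 24068523 counts a library, the lowest genes rest on few reads.

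Samples carry the numbers 1 to 3 within every group in the labels. With group means removed, the same-numbered KO EpiLC and F/F ESC libraries correlated across genes by 0.172, 0.222 and 0.198, so the numbers were taken to pair the samples, and the fit with the replicate block was an alternative. Other alternatives were no low-count filter, a mean of at least 10 CPM, DESeq2 size factors, no mitochondrially encoded genes, the 6 libraries alone, a test against 1.5-fold, an interval within 1.5-fold, and each library left out.

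The members and the 28 lists (709 genes, 657 tested) were chosen with earlier results of these data known. The rule for named genes covers those the study names, the 12 largest DE changes in each direction (libraries not overlapping, mean 10 CPM or more, predicted genes left out), all tested naïve and formative genes, the 6 most abundant naïve genes within 2-fold, and up to 4 DE members of each other list. *Axin2*, *Nkd2*, *Fzd7*, *Ascl2*, *Epcam*, *Fn1*, *Col1a1*, *Col1a2*, *Gata6*, *Sox17*, *Cubn*, *Tmem92*, *Eif1a* and *mt-Rnr1* were named after their values were seen. Some genes that the rule names are not reported here. Of 173 named genes 55 share exon bases with another gene in GENCODE vM21 (the counts may rest on another annotation), and 115 have a promoter in the RefSeq table.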

Additional observations from a re-analysis of the deposited data

How the results depend on the processing

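No gene named by the rule turned its direction where its adjusted p was under 0.05 in the main or the alternative fit. A change of sign where neither fit passed was not recorded. The median log2 fold change over all genes tested, near 0, changed its sign among the alternatives and ran from −0.0148 to 0.0106. Of the single genes named, 3348 values kept their side of the threshold, 22 gained it and 22 lost it, and of the list counts 1513 stayed within 1.5 times and 47 did not. With a mean of at least 10 CPM, where fewer genes were tested, 680 genes were higher and 478 lower, 0 naïve genes were higher and 1 formative gene was lower. The 6 libraries alone left 1 formative gene lower, with and without the replicate block. With an interval within 1.5-fold in place of 2-fold, 7 naïve genes were within it. Left-out libraries gave 2288 to 2596 genes higher and 1407 to 1466 lower, 10 to 11 naïve genes lower and 12 to 15 within 2-fold, and 20 to 21 formative genes higher. DESeq2 had 2371 higher and 1358 lower, and a test against 1.5-fold 2500 and 1655.

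With the replicate block in the fit of all 12 libraries, 2470 genes were higher and 1405 lower, and 10 naïve genes were lower and 14 within 2-fold. Apart from *Klf5*, *Fgf4*, *Gata6*, *Cubn* and *Tmem92*, given with their blocked values above, the pairing in that fit moved no gene named here across the threshold. In the 6 libraries alone with the block, *Tbx3* and *Pecam1* passed it too. That fit also leaves out the other groups, so their change cannot be assigned to the block. Depth itself was not varied.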
